A study of Sesuvium portulacastrum with 18 samples.

Results

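Among the shoot transcripts of Sesuvium portulacastrum, 141 of 89295 listed (0.158%) peaked after 8 h in NaCl medium and were back near their starting level at 24 h. They were chosen by their mean normalized CPM (CPM, counts scaled to the library total and then by the authors' factor) over the 3 libraries of each time. The 8 h mean had to be at least 10 and at least 3 times both the 0 h and the 24 h mean, the 24 h mean had to lie between 0.667 and 1.5 times the 0 h mean, and each 8 h library had to exceed all 0 h and 24 h libraries. The rise and the return are therefore how the members were found, and their values are given as a description with no test. "Peak at 8 h" refers to the 3 times sampled, with nothing measured between them.

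Sesuvium portulacastrum, a creeping succulent of sea shores, is a halophyte and tolerates salt levels that stop most crops. The plants were raised hydroponically from stem cuttings and were 15 days old at the start, under a 12 h photoperiod. The 0 h plants were put into control medium and harvested at once, and the 8 h and 24 h plants were put into medium with 250 mM NaCl and harvested after 8 h and 24 h, each time with 3 biological replicates of whole shoots. The labels state no transgene or mutation for any group, and all groups come from stem cuttings collected in the field. There were no plants kept in control medium for 8 h or 24 h, so the effect of salt, of the change of medium and of the hour of harvest cannot be told apart. The sources used here do not give the clock hours of harvest.

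When roots meet salt, a plant first senses an osmotic stress, because water becomes harder to take up, and sodium and chloride build up in the shoot later. The first hours typically bring a burst of transcripts for signalling, transcription factors and protective proteins, much of which fades as the plant adjusts. Many shoot transcripts also follow the light period and the circadian clock, and return to the same level after a full day. The IDs in the files carry no gene name, function or sequence, so no member could be assigned to any of these classes, no marker of shoot tissue could be checked, and few IDs are named.

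Depth ran from 10050233 to 15068602 estimated counts per shoot library, and 40220 transcripts had enough counts to be tested. All 141 members were among them. In the 8 h libraries every member had at least 102 counts, while the median member averaged 105 counts per library at 0 h and 103 at 24 h. In all, 4 members at 0 h and 5 at 24 h averaged under 10 counts, and 2 members at each of these times had a library with no count, which allows up to 3 counts or 0.199 to 0.299 CPM, for counting error only.

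Few transcripts rose this far at 8 h, and most of those were near their 0 h level at 24 h. Of 12684 transcripts with an 8 h mean of at least 10 normalized CPM, 226 stood at 3 times their 0 h mean or more. Of these 226, 31 were still above 1.5 times the 0 h mean at 24 h, 26 had gone below 0.667 times, and 169 lay in between. The share of all 12684 transcripts within these limits is not given here. The 169 are therefore not read as a return particular to transcripts with a large rise. The 3-fold limit against 24 h removed 28 of the 169, and the condition on single libraries removed none. The members are thus 62.4% of the transcripts with so large a rise. With the limits turned round, 555 shoot transcripts showed a trough at 8 h, and the same rule took 80 of 87369 root transcripts, or 31.7% of the 252 that stood at 3 times 0 h. Root and shoot IDs have none in common, so whether the tissues share such transcripts was not tested.

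**Figure D1:**
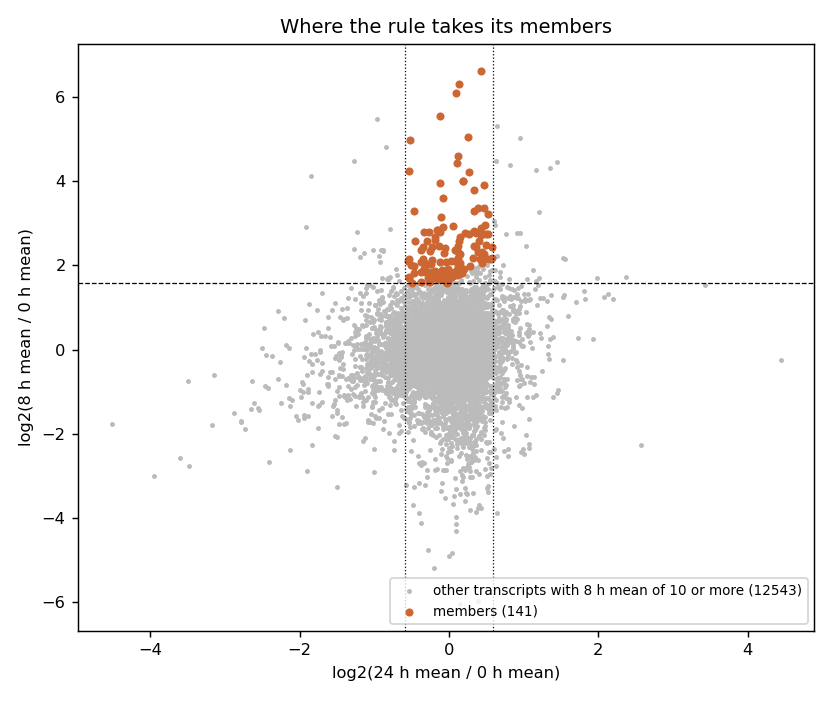
Each point is a shoot transcript with an 8 h mean of at least 10 normalized CPM, placed by its log2 ratio of 24 h to 0 h (x axis) and of 8 h to 0 h (y axis). The 141 members (orange) lie above the dashed 3-fold line and between the dotted lines at 0.667 and 1.5 times the 0 h mean, a space they share with 28 transcripts (grey) that were under 3 times their 24 h mean at 8 h, while most of the 12543 other transcripts (grey) lie below the dashed line.

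The member that took most counts at 8 h was S_Transcript_58763.p1. It had 690, 610 and 592 normalized CPM in the 0 h libraries, 4312, 4094 and 5059 in the 8 h libraries, and 388, 667 and 652 in the 24 h libraries. The 8 h libraries were far above all others, and the 24 h libraries overlapped those at 0 h, with 24 h replicate 1 the lowest of the 9. By normalized CPM, which is not divided by transcript length, it ranked 180 of all shoot transcripts at 0 h, 1 at 8 h and 201 at 24 h. No other transcript took as many counts at 8 h. Its log2 fold change was 2.81 (SE 0.19) for 8 h against 0 h, -2.95 (SE 0.19) for 24 h against 8 h, and -0.14 (SE 0.17) for 24 h against 0 h.

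S_Transcript_241253.p1 was the next by 8 h mean. Its levels were 397, 284 and 363 normalized CPM at 0 h, 2095, 2066 and 1714 at 8 h, and 557, 350 and 560 at 24 h. The return was less complete here, since 24 h replicates 1 and 3 lay above every 0 h library and replicate 2 lay among them. The 24 h mean was 1.40 times the 0 h mean, near the upper limit of the rule. The transcript ranked 351 at 0 h, 13 at 8 h and 226 at 24 h, and its log2 fold change was 2.48 (SE 0.18) for 8 h against 0 h and 0.50 (SE 0.17) for 24 h against 0 h.

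The deepest falls between 8 h and 24 h, among members with at least 1 normalized CPM at both 0 h and 24 h, were those of S_Transcript_122046.p1 and S_Transcript_322132.p1. S_Transcript_122046.p1 had 27.3, 37.0 and 47.6 normalized CPM at 0 h, 1389, 1187 and 1143 at 8 h, and 44.5, 33.7 and 55.4 at 24 h. Its lowest 8 h library was 20.6 times its highest library of the other times, and the 0 h and 24 h libraries overlapped. It ranked 5347 at 0 h, 50 at 8 h and 4417 at 24 h. The log2 fold change was -4.77 (SE 0.21) for 24 h against 8 h.

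S_Transcript_322132.p1 belonged to the lower levels. It had 2.20, 1.16 and 2.30 normalized CPM at 0 h, 30.1, 37.6 and 39.6 at 8 h, and 0.894, 1.47 and 1.55 at 24 h, from 14 to 31 counts per library at 0 h and 11 to 17 at 24 h. The 0 h and 24 h libraries overlapped, and both lay far below those of 8 h. Its log2 fold change was -4.75 (SE 0.24) for 24 h against 8 h and -0.52 (SE 0.31) for 24 h against 0 h.

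**Figure D2:**
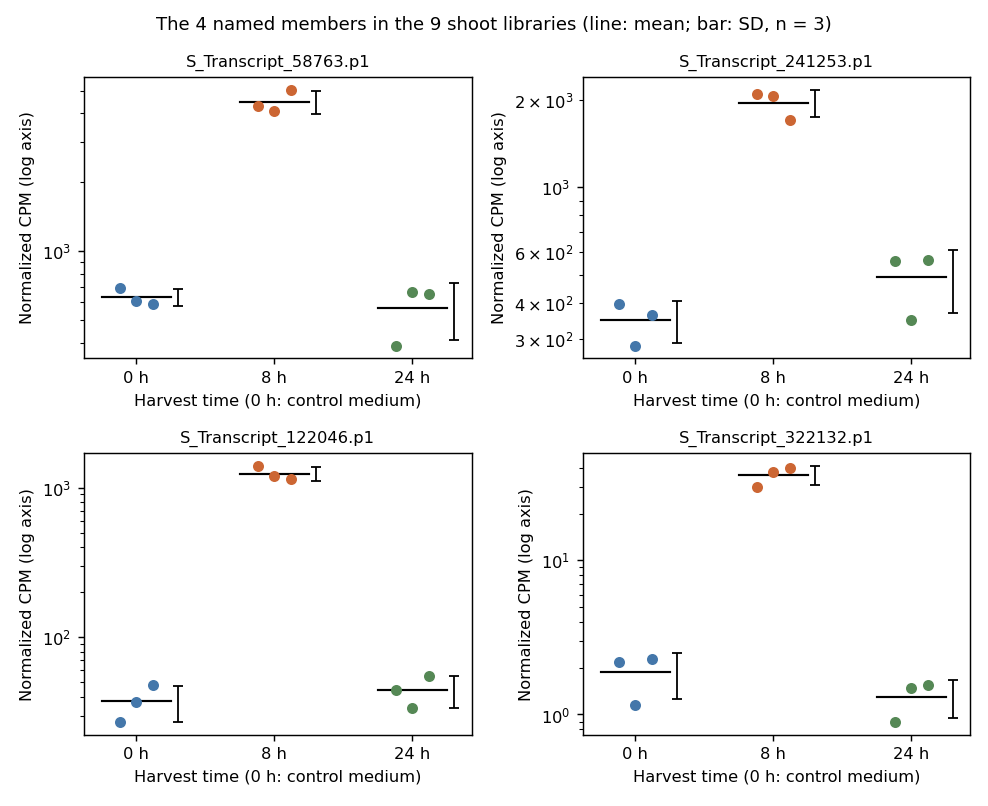
Normalized CPM (log axis) of the 4 named members in the 9 shoot libraries, with points for libraries, a line for the mean and a bar for the SD (n = 3). In each panel the 3 libraries at 8 h stand clear of the 6 others, and the 0 h and 24 h libraries overlap.

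The members spanned a wide range of levels. At 8 h, 4 had means of at least 1000 normalized CPM, 35 lay between 100 and 1000, 22 between 50 and 100, 50 between 20 and 50, and 30 between 10 and 20. The median over members was 8.91 normalized CPM at 0 h, 40.7 at 8 h and 9.13 at 24 h. Among the 1000 transcripts that took most counts, 2 were members at 0 h, 30 at 8 h and 2 at 24 h, and among the top 100 there were 0, 4 and 0.

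Most of the ratios were moderate, with a short tail of very large ones. The 8 h mean was 3 to 4 times the 0 h mean in 58 members, 4 to 8 times in 61, 8 to 16 times in 10 and at least 16 times in 12. The median was 4.40, with quartiles of 3.50 and 6.72. In 5 of the 12 members with the largest ratios the 0 h mean was under 1 normalized CPM, so that these ratios rest on few counts. The largest ratio, 98.4, belonged to a member with 1, 0 and 3 counts in the 0 h libraries, 112, 157 and 167 at 8 h, and 2, 2 and 1 at 24 h. From the summed counts the ratio was 93.9, with an exact 95% interval of 36.4 to 346 that covers counting error only. Ratios of at least 8 occurred in 8 of the 39 members with 8 h means of at least 100 and in 14 of the 102 lower ones, so large ratios were found at high and at low levels.

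**Figure D3:**
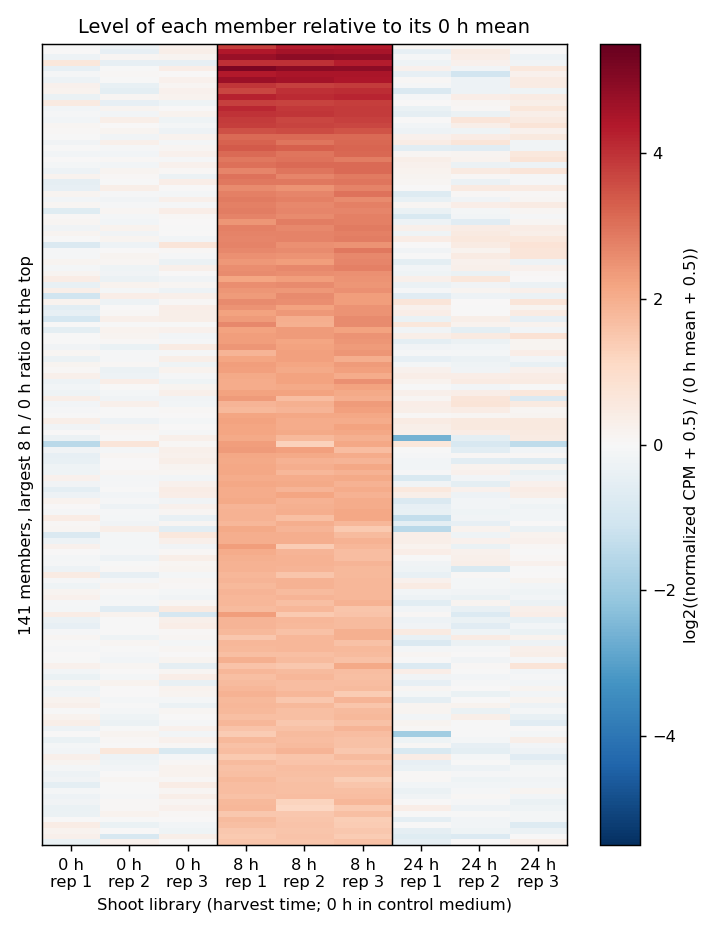
Each row is a member and each column a shoot library, with members ordered by their 8 h to 0 h ratio. Colour gives log2 of the level over the member's own 0 h mean, with 0.5 added to both. The 3 columns of 8 h are raised in all 141 rows, and the 24 h columns are close to the 0 h columns, with 24 h replicate 1 lower than the rest in a few rows.

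The libraries of 8 h stood well clear in nearly all members, which the limits of the rule largely build in. The lowest 8 h library was between 1.57 and 37.4 times the highest of the 6 other libraries (median 3.07), at least 2 times in 137 members and at least 4 times in 45. Within 8 h, the highest library was at most 1.25 times the lowest in 106 members. The median ratio was 1.14. The widest spread within 8 h, 2.09 times, was in a member with 0.701, 4.80 and 2.96 normalized CPM at 0 h, 15.7, 7.52 and 13.96 at 8 h, and 4.55, 1.30 and 0.777 at 24 h, and this member also had the smallest gap between 8 h and the other times.

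The members were even among replicates at their peak and less so before and after it. The median coefficient of variation (SD over mean, n = 3) was 17.7% at 0 h, 7.35% at 8 h and 18.9% at 24 h. Transcripts scatter more at low counts, and the members are low at 0 h and 24 h. Tested transcripts whose level lay within the members' own quartiles at the same time had medians of 15.3% at 0 h (11458 transcripts), 6.23% at 8 h (6464) and 13.7% at 24 h (12327). The 71 members within these quartiles had 16.03% at 0 h, 6.47% at 8 h and 17.8% at 24 h, so the members' spread was close to that of transcripts of like level at 0 h and 8 h, and higher at 24 h, a difference that was not tested.

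The order of the libraries within a time was compared with that of other transcripts, which were not matched for level, and no difference in it was tested. At 24 h replicate 3 was highest in 67 of the 141 members (47.5%), against 36.4% of the 12684 tested transcripts with an 8 h mean of at least 10. At 0 h replicate 3 was highest in 72 members (51.1%), against 50.8% of those transcripts, and at 8 h replicate 1 was highest in 62 (44.0%), against 40.4%. The shares lay closer together at 0 h and 8 h than at 24 h.

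As a sum, the members took a larger share of the shoot's counts at 8 h than at the other times, which follows from the rule. They totalled 3646 ± 122 normalized CPM at 0 h, 21549 ± 569 at 8 h and 3782 ± 320 at 24 h (SD, n = 3 each), a ratio of 5.91 for 8 h over 0 h and 1.04 for 24 h over 0 h. As a share of the estimated counts this was 0.346 ± 0.00720% at 0 h, 2.39 ± 0.0397% at 8 h and 0.358 ± 0.0263% at 24 h. The 10 members with the highest 8 h means held 48.0% of the sum at 0 h, 56.7% at 8 h and 49.4% at 24 h. The other 131 gave a ratio of 4.92 for 8 h over 0 h. The 10 were picked by their 8 h means, which favours a larger share at 8 h and a lower ratio in the rest. Nothing is therefore read from either. These are whole shoots, where more cells of a type and more RNA per cell cannot be told apart.

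**Figure D4:**
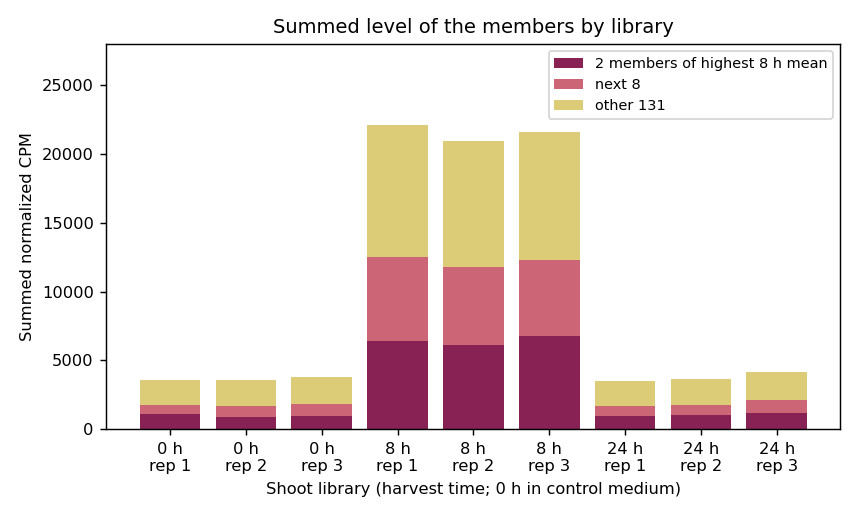
Summed normalized CPM of the members in each shoot library, split into the 2 members of highest 8 h mean, the next 8 and the other 131. The 3 libraries at 8 h reach 20961 to 22098, and the 6 libraries of 0 h and 24 h lie between 3533 and 4143, with 24 h replicate 3 the highest of these.

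The return to the 0 h level was close for most members and not exact for all. The 24 h mean was above the 0 h mean in 66 members and below it in 75, with a median ratio of 0.975 and quartiles of 0.856 and 1.13. It lay within 0.8 to 1.25 times the 0 h mean in 91 members. The 24 h and 0 h libraries overlapped in 120 of the 141 members, while all 3 libraries of 24 h were above those of 0 h in 15 and below them in 6. They overlapped in 65.5% of the 12684 tested transcripts with an 8 h mean of at least 10. The rule kept members near their 0 h level, so nothing is read from the difference.

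In edgeR's quasi-likelihood fit of all tested shoot transcripts, with a transcript called at a Benjamini-Hochberg adjusted p under 0.05, 6 members were called between 24 h and 0 h, 5 higher and 1 lower at 24 h. Of all tested transcripts 7.07% were called in this contrast, and the rule kept members near their 0 h level, so nothing is read from the difference. The 6 had log2 fold changes of -0.46 to 0.59, and the one with the highest 8 h mean had 90.6 ± 6.30 normalized CPM at 24 h and 63.0 ± 5.80 at 0 h (SD, n = 3 each). The number was 3 without 8 h replicate 1 or 2, beside 2252 and 2225 called among all transcripts, where the main fit called 2842. It was 2 without 24 h replicate 2 or 3, beside 1785 and 1801 among all. In a fit of only the 24 h and 0 h libraries it was 2 of the 137 members tested there, beside 1854 among all.

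The rise and the fall themselves were the basis of the choice. All 141 members were called higher at 8 h than at 0 h, as were 10.6% of all tested transcripts, and all 141 were called lower at 24 h than at 8 h, as were 12.6% of all. The 8 h libraries exceeded all libraries of both other times in 13.5% of tested transcripts. The members' log2 fold changes ran from 1.57 to 6.42 (median 2.11, median SE 0.17) for 8 h against 0 h and from -6.10 to -1.58 (median -2.16) for 24 h against 8 h, beside medians over all tested transcripts of -0.0042 and -0.013.

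Transcripts just outside the limits differed little from those just inside. By 8 h mean, the lowest member stood at 10.3 normalized CPM and the nearest transcript left out at 9.81. The smallest member ratio of 8 h to 0 h was 3.01, against 2.98 for the nearest transcript left out, and against 24 h the values were 3.05 and 2.99. For the ratio of 24 h to 0 h, the lowest member had 0.686 and the nearest transcript below it 0.628, and the highest member had 1.497, with 1.505 for the nearest transcript above it. That last one was abundant, with means of 496 normalized CPM at 0 h, 2613 at 8 h and 747 at 24 h. Its course was like that of the member S_Transcript_241253.p1 (348, 1958 and 489), and it fell outside by a narrow margin.

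The numbers within the IDs were not used by the rule, and members were found beside each other in them. An ID holds a transcript number and, after the letter p, a second number that was 1 in 135 of the 141 members (95.7%), against 94.98% of tested transcripts with an 8 h mean of at least 10. No transcript number occurred in more than 1 member, but 20 members formed 10 pairs with consecutive numbers. A tested transcript numbered 1 away, member or not, was present for 35.5% of members and 27.9% of all tested transcripts. Within a pair the ratios of 8 h to 0 h, which the rule holds above 3, differed by at most 1.31 times. In the pair with the highest level they were 3.35 and 4.39, with 8 h means of 83.2 and 696 normalized CPM. Another member numbered 2 away was found for 10 members, S_Transcript_122046.p1 among them. The companion of S_Transcript_122046.p1, a member numbered 2 lower, had 36.2, 43.6 and 51.5 normalized CPM at 0 h, 1157, 1058 and 969 at 8 h, and 46.1, 36.5 and 60.3 at 24 h. In S_Transcript_122046.p1 and this companion the 3 libraries of each time came in the same order.

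Transcripts numbered close to a member, but not members themselves, were also often higher at 8 h. Of 36 tested transcripts whose number was 1 away from a member's, 23 were called higher at 8 h than at 0 h (63.9%), with a median log2 fold change of 1.12. At a distance of 2 it was 13 of 27 (48.1%, median 0.97), and at 3 to 5 it was 16 of 70 (22.9%, median 0.23). At distances of 6 to 20 it was 67 of 561 (11.9%, median -0.08), and at 21 to 100 it was 308 of 2663 (11.6%), close to the 10.6% of all tested transcripts. The share was thus high next to the members and came near that of all transcripts from a distance of 6 on. At a distance of 1 the median log2 fold change for 24 h against 0 h was -0.10. The sources used here do not say what the numbers stand for, and whether neighbours share reads was not tested.

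**Figure D5:**
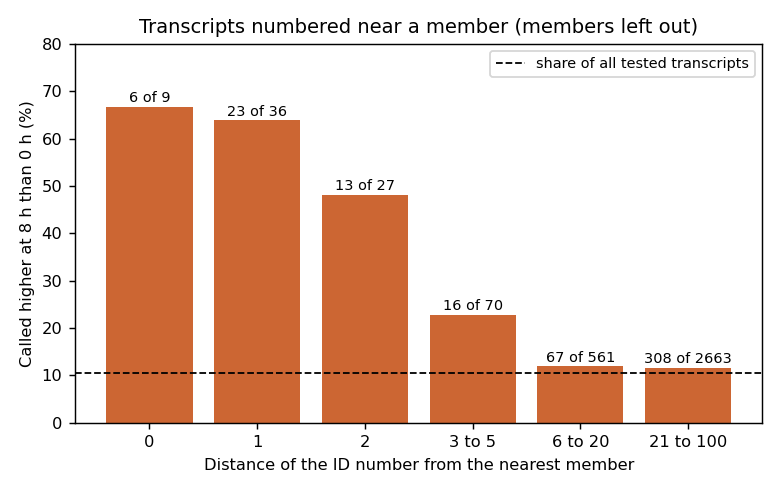
Share of tested shoot transcripts called higher at 8 h than at 0 h (y axis, percent), by the distance of their ID number from the nearest member's (x axis), with members left out and the counts above the bars. The share is 63.9% at a distance of 1 and 11.6% at 21 to 100, beside the dashed line at 10.6% for all tested transcripts.

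IDs that share their transcript number with a member and differ in the number after p did not all follow it in level. The sources used here do not say whether such IDs are separate transcripts. There were 9 such tested IDs beside 7 members, and 6 of them (66.7%) were called higher at 8 h than at 0 h, against 10.6% of all tested transcripts. The 9 are not independent, since some members had several, with log2 fold changes of 4.40 and 5.61 beside the same member. The lowest of the 9 at 8 h had means of 0.025, 1.86 and 0.29 normalized CPM at 0 h, 8 h and 24 h. Such IDs may have passed the count filter through 8 h alone. The median log2 fold change of the 9 for 8 h against 0 h was 2.44, and 8 of them were above 0. For 24 h against 0 h their median was 0.55, with values from -0.18 to 3.01, so not all were back at their 0 h level. For a member with means of 1.09 normalized CPM at 0 h, 34.1 at 8 h and 0.757 at 24 h, the companion of the same number stood at 43.5 at 0 h, 47.0 at 8 h and 41.7 at 24 h. The companion's means at the 3 times lay close together while the member peaked.

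The scaling of the libraries bears on the number of members. The deposited factors lower the 8 h libraries relative to plain CPM. Scaled by library size alone, the median log2 fold change of all tested transcripts was 0.24 for 8 h against 0 h, and the same rule then took 221 transcripts, with all 141 members among them. With DESeq2's size factors it took 138, all of them members.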

How the data were processed

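RNA was measured by sequencing in 18 libraries, 9 from shoot and 9 from root, with 3 per time. Per the labels' protocols, libraries were made from total RNA with a directional kit. The authors deposited estimated counts per transcript as whole numbers, and a normalized signal named CPM. Tools listed in the submitters' processing notes, with no role given, are kallisto 0.45, edgeR 3.40.1 and Trimmomatic. Assembly, rounding and strand setting are not given in the sources used here. Each deposited signal value equals CPM from the counts divided by a factor per library, which equals edgeR's TMM factor over all transcripts with a count. It gave levels and members. The counts, which rounding left as they were, went into edgeR 4.0.16 (R 4.3.3): filterByExpr with minimum count 10, TMM, and glmQLFit and glmQLFTest on the 9 shoot libraries with the time as the single factor, two-sided, with Benjamini-Hochberg adjustment over 40220 transcripts. The SE is the log2 fold change over the square root of F.

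The members and the lists were chosen with earlier results of these data known. The named members are the 2 of highest 8 h mean and then the 2 with the deepest fall from 8 h to 24 h with means of at least 1 at 0 h and 24 h. No gene names come with the IDs. All columns were matched to a library (0 left over), and root was used only for a count. Levels are not divided by length, and very similar transcripts may share reads, which the counting then divides among their IDs. Replicates of a time differed by more than sampling noise (chi-square per degree of freedom of 3.24 to 12.0). The labels say the replicates are biological, without saying whether plants were pooled. The fit was tested on simulated data. Alternatives were DESeq2 1.42.0, other scalings, no filter, other limits of the rule, a replicate block and leaving out each library.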

Additional observations from a re-analysis of the deposited data

How the results depend on the processing

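The number of members was 134 to 149 when single libraries were left out, with 122 to 138 of the 141 among them, 138 with DESeq2's size factors and 221 with library size alone. By construction it also moved with the limits: 384 with a 2-fold minimum, 72 with a 4-fold minimum and 91 with the 24 h mean within 0.8 to 1.25 times 0 h. Without the condition on single libraries it was 141, and 131 with consecutive numbers counted once, a setting chosen after seeing the data. The summed ratio of 8 h over 0 h was 6.92 with library size alone, 4.92 without the 10 members of highest 8 h mean, and 5.84 to 6.03 without single libraries. Between 24 h and 0 h, 2 members were called in a fit of only these groups, beside 1854 among all transcripts. Without single libraries 2 to 7 members were called, beside 1641 to 2534 among all. DESeq2 and the fit without a filter gave 9 members each, beside 3364 and 3995 among all, where the main fit called 6 members and 2842 in all. The cause was not tested.

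With the replicate block, 141 members were called for 8 h against 0 h, 141 for 24 h against 8 h and 4 for 24 h against 0 h. Among all tested transcripts 9259, 10126 and 1906 were called in these contrasts, in either direction. The deviations of same-numbered libraries correlated at -0.16 to 0.06 over 9 pairs, beside -0.12 to 0.16 for pairs of unlike number. Whether same-numbered libraries were grown or harvested together cannot be told from these correlations. For 24 h against 0 h, S_Transcript_241253.p1 was past the threshold in DESeq2 (log2 fold change 0.51), without the filter (0.49) and without 24 h replicate 2 (0.69), and not in the other settings. The other 177 of 180 values of the named members kept their side of the threshold, although the 24 h against 0 h value of S_Transcript_58763.p1, never past it, ran from -0.27 to 0.08 without single libraries. The number of transcripts 1 away from a member that were called higher at 8 h was 22 to 26 of 36 over all settings, also chosen after seeing the data, beside 21.7% of all transcripts with library size alone. At 0 h and 24 h, low counts limit the ratios of the lowest members.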
